A study of Mus musculus with 16 samples.

Results

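The set described here holds 124 genes of the enzyme families that oxidise and conjugate drugs, steroids and lipids: 76 cytochrome P450 genes (Cyp), 21 glutathione transferase genes (Gst), 18 sulfotransferase genes (Sult) and 9 UDP-glycosyltransferase genes (Ugt). Members were chosen by symbol, leaving out Cyp51, and by a measured total of at least 20 UMIs (unique molecular identifiers, each counting 1 captured mRNA molecule) over the kept cells of all 16 libraries. These libraries list 156 genes of the families among 28683 genes, and 20447 genes of any kind reach 20 UMIs. Because the total chose the members, totals are given as a description. Just inside the limit were Cyp2d11, Cyp3a59 and Sult1d1 with 20 UMIs each, and just outside it Cyp4a14 and Ugt2b35 with 19. Of the 32 family genes below the limit, the steroid synthesis genes Cyp17a1 and Cyp11b1 had 15 and 13 UMIs, and every listed Ugt1a gene had 0 to 10. How reads that fit several Ugt1a genes were assigned is not known, so these counts do not show that the genes are silent.

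The study profiled single cells of the hypothalamus and preoptic area of 16 female mice by Drop-seq, with 1 library per mouse, to ask how long-term tamoxifen acts there with and without estrogen receptor alpha. Wild-type mice received corn oil with ethanol (WT_oil, n = 3) or tamoxifen (WT_tamoxifen, n = 5), and Esr1cKO mice the same (Esr1cKO_oil and Esr1cKO_tamoxifen, n = 4 each). The dose was 0.1 mg/kg, given subcutaneously on 28 consecutive days from an age of 8 to 10 weeks, and tissue was taken 2 h after the last injection. All mice shared a mixed CD-1;129P2 background. Esr1cKO mice carried floxed Esr1 alleles and the Nkx2-1-Cre transgene, a single BAC line that recombines in cells of the Nkx2-1 lineage, which includes the medial hypothalamus and also tissues outside the brain, and the controls were littermates without Cre. The study handled 4 mice per day over 4 days, and states that all groups ran in parallel. With 3 WT_oil mice over 4 days, at least 1 day had no WT_oil mouse. Replicates are numbered within a group in accession order.

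Drug metabolism is usually described in phases. Cytochrome P450 enzymes insert oxygen into a substrate, and transferases then attach glutathione, sulfate or a sugar, which makes the product more water-soluble and easier to export. In liver these enzymes clear tamoxifen, some of whose oxidised products bind the estrogen receptor more tightly than the parent drug. In brain, members of the same families act largely on endogenous lipids: Cyp2j and Cyp4 enzymes on arachidonic and other fatty acids, Cyp46a1, Cyp7b1, Cyp27a1 and Cyp39a1 on cholesterol and oxysterols, Cyp19a1 on androgens, and Ugt8a on ceramide for myelin.

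The libraries held 2634253 to 8038158 UMIs. After cells above 200 but below 4000 detected genes and under 15% mitochondrial UMIs were kept, 55675 cells remained, 1746 to 5568 per library, with a median of 563 to 819 UMIs per cell. The cells formed 9 clusters that carried all detected markers of a cell type (9 to 12 markers each): 13580 astrocytes, 9234 oligodendrocytes, 9127 neurons, 7177 endothelial cells, 5390 microglia, 4446 polydendrocytes (oligodendrocyte precursors), 3172 ependymal cells and tanycytes, 2366 mural cells and 970 fibroblasts. These marker-based names stand for astrocyte-like cells and so on. A further cluster of 213 cells stayed unnamed. WT_oil replicate 3 and Esr1cKO_tamoxifen replicate 3 stood apart from the other 14 on the first principal component (57.8% of the variance) and hold 15.6% of the kept UMIs. WT_tamoxifen replicates 4 and 5, Esr1cKO_oil replicate 4 and Esr1cKO_tamoxifen replicate 4 shared 303 to 359 kept barcodes in every pair, against a median of 1 for the other 114 pairs, and 300 such pairs of cells correlated at a median r of 0.55 against 0.12 for cells with different barcodes. Among the other pairs the highest count was 42, between WT_oil replicate 2 and WT_tamoxifen replicate 4. Shared barcodes touched 1717 cells (3.08%). They made up 7.455% to 11.15% of cells in each library that shared 303 or more, and 0.2282% to 1.719% in each of the others. Esr1 itself, read in neurons in CPM (UMIs of a gene per 1000000 UMIs of the same cells), was at 86.5, 48.9 and 44.1 in WT_oil, 57.2 to 74.4 in WT_tamoxifen, 41.4 to 59.1 in Esr1cKO_oil and 17.1 to 71.2 in Esr1cKO_tamoxifen. These ranges overlapped, and a 3′ tag may lie outside the deleted part of the gene, so it does not check the genotype labels.

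Members supplied 114095 UMIs, 0.192% of the kept UMIs, and 12 of them held 69.5% of that: Gstm1, Gstp1, Gstm5, Ugt8a, Gsta4, Cyp2j9, Cyp2j6, Sult4a1, Gstp2, Gstm7, Gstz1 and Cyp20a1. A total of 23 members reached 1000 UMIs and 63 had fewer than 100. Of the 124, 122 were matched to RefSeq positions. Many sit in tandem clusters, with 22 members on chromosome 7, 19 on chromosome 19, 17 on chromosome 5 and 14 on chromosome 4. Members that are near-identical copies of a neighbour (Gstm, Gstp, Cyp2c, Cyp3a and Sult2a genes) are uncertain in how reads were assigned among them.

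The promoters of 6 members follow because the cell-type results below turn on these neighbours: Gstm1 and Gstm5, which lie in one cluster, the adjacent copies Gstp1 and Gstp2, and Cyp2j9 and Cyp2j12, which lie in one cluster and differ in cell type. Each is the 250 bases before an annotated transcript start in RefSeq (GRCm38.p6), written in the direction of the gene; Gstm1 has a second annotated start, not shown. Capitals mark 2 motifs searched on both strands, TGACNNNGC (a core bound by NRF2, the main activator of glutathione transferase genes under oxidative stress) and GCGTG (the core bound by the aryl hydrocarbon receptor, seen as CACGC on the other strand).
Gstm1, chr3:108017974-108018223, minus strand: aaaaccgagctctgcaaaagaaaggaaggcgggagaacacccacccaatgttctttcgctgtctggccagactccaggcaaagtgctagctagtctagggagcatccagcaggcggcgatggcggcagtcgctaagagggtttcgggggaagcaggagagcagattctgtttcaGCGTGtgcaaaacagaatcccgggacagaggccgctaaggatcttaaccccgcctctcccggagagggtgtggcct
Gstm5, chr3:107895604-107895853, plus strand: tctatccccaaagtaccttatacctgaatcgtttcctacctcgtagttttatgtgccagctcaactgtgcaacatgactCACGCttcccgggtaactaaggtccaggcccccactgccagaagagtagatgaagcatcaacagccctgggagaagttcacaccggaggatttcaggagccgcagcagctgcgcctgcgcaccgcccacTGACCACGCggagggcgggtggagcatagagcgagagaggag
Gstp1, chr19:4037913-4038162, minus strand: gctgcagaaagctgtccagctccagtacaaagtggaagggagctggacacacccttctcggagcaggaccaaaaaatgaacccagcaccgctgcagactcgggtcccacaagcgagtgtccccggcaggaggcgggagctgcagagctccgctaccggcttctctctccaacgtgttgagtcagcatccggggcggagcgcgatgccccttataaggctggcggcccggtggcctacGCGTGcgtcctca
Gstp2, chr19:4042222-4042471, minus strand: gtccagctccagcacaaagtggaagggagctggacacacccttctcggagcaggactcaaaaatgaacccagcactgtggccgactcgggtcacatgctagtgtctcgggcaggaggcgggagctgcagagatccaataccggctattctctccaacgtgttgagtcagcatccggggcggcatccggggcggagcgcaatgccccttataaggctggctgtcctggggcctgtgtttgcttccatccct
Cyp2j9, chr4:96591486-96591735, minus strand: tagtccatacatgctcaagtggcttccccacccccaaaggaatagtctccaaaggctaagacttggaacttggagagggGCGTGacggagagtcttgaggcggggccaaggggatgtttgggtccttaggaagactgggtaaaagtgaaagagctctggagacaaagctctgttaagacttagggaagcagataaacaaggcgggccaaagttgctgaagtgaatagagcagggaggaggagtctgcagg
Cyp2j12, chr4:96141153-96141402, minus strand: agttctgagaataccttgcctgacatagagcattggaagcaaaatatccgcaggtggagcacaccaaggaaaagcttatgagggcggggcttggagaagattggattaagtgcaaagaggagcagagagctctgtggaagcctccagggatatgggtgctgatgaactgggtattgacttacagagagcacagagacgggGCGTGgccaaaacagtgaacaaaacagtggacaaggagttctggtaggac

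In Gstm5 the TGACNNNGC match contains a GCGTG core on the other strand. Windows of this length were read for 102 members and 27025 genes. TGACNNNGC stood in 5 of the 102 members, 3 of them among the 19 Gst members with a window, and in 11.5% of all genes. GCGTG stood in 21 of the 102, 4 of them Gst members, and in 30.9% of all genes. These are counts of fixed letters in a short window and show no binding. Sites of any other form were not marked or counted.

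Each cell type was compared with all other cells of the same library, with the library as a block. Levels are CPM of the same cells, given as the lowest, median and highest of the libraries, and the log2FC and adjusted p are from edgeR's quasi-likelihood test with Benjamini-Hochberg adjustment over all genes of a type. UMIs come from 3′ tags, are not scaled by length, and are compared here for 1 gene across cells. Totals and sums of UMIs over several genes are descriptions and order no genes by level. Only 38 members passed the filter on low counts in any type, and 86 passed in none. A member could pass through the type or through the other cells, whichever held it higher. A lower call can thus rest on few UMIs in the type, as for Cyp2j12 with 1 UMI in mural cells. The counts that follow therefore describe the tested members and are read against all genes tested. In all, 273 of 1116 pairs of member and type were tested, of which 82 were higher, 137 lower and 54 past neither limit. Every one of the 38 tested members was higher in at least 1 type: 14 in 1 type, 9 in 2, 10 in 3 and 5 in 4. Since the filter favours members that are high somewhere, this is a description.

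In astrocytes 20 of 33 tested members were higher, 7 lower and 6 past neither limit, where 31.9% of all genes tested were higher and 41.6% lower. In fibroblasts 11 of 29 were higher against 13.7% of all genes, and 11 lower against 34.2%. The median log2FC of the tested members was 0.85 in astrocytes and 0.23 in fibroblasts, and that of all genes -0.08 and -0.32. Oligodendrocytes had 12 of 29 higher and 12 lower (32.7% and 42.6% of all genes), and polydendrocytes 8 and 14 of 29 (31.3% and 33.3%). Ependymal cells had 8 and 16 of 32 (30.1% and 34.7%), and endothelial cells 8 and 15 of 32 (36.2% and 40.3%).

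In neurons 8 of 36 tested members were higher, against 40.4% of all genes tested, and 26 were lower, against 41.3%. Over the 9 types pooled 29.4% of all tests were higher and 39% lower. Microglia had 5 of 26 higher (30.1% of all genes) and 20 lower (43.7%), and mural cells 2 of 27 higher (15.5%) and 16 lower (39%). The median log2FC of the tested members was -1.83 in neurons, where all genes had -0.01, and -1.76 in microglia, where all genes had -0.20. Neurons were also the deepest cells, with a median of 1489 UMIs against 482 in astrocytes. When cells were thinned to 500 UMIs and the 18387 of 55675 cells with fewer were left out, which changes both the depth and the set of cells, 126 of the 219 called pairs were still past the limit in the same direction, 9 were not, 84 were too sparse for a test and 0 were called in the other direction. Another scaling moved the median of all genes by over 0.1 in several types, to -0.53 in oligodendrocytes and -0.59 in microglia with library size alone and to -0.65 in mural cells with DESeq2 size factors. Of the 219 called pairs, 1 changed direction with scaling, Cyp39a1 in oligodendrocytes.

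**Figure D1:**
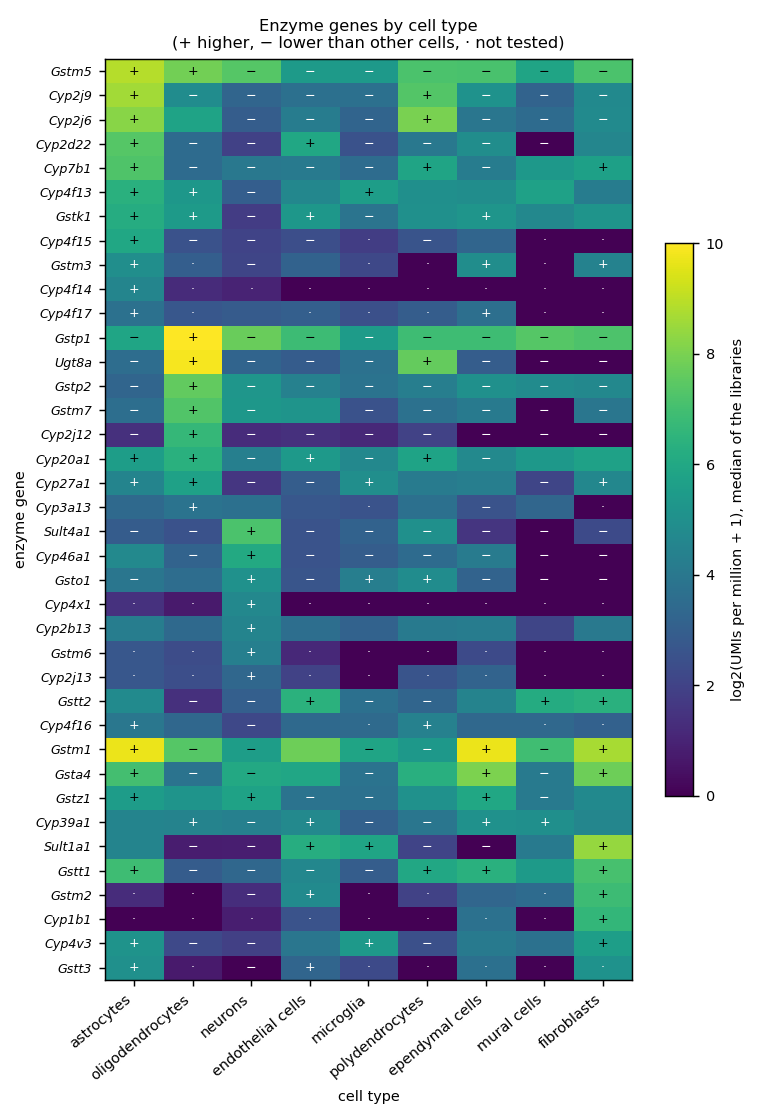
Median level over the libraries (colour, log2 of CPM plus 1) of the 38 tested members (rows, grouped by their highest type) in 9 cell types (columns), with marks for higher (+), lower (−) and not tested (·). Colours are to be compared along a row: Gstp1, Gstp2, Gstm7, Cyp2j12 and Ugt8a peak in oligodendrocytes, Cyp2j9, Cyp2j6, Cyp2d22 and Cyp7b1 in astrocytes, and Sult4a1, Cyp4x1, Gstm6 and Cyp46a1 in neurons.

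Glutathione transferases join glutathione to reactive compounds, and are described first. Their sum over the 21 members, unscaled by length, stood at 1285, 1884 and 2266 CPM (lowest, median and highest library) in astrocytes, at 1068, 1876 and 2494 in oligodendrocytes and at 1255, 1769 and 2296 in ependymal cells. In neurons the sum was at 566, 713 and 941, and in microglia at 183, 252 and 399.9. The ranges of microglia and of the 3 former types did not overlap. Of the 21, 15 were tested, in 112 pairs: 36 were higher, 60 lower and 16 past neither limit, where all genes over the 9 types had 29.4% and 39%. The 6 others passed the filter in no type.

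Gstm1, the mu-class enzyme with the most UMIs of the set, was an astrocyte and ependymal gene. Its level in astrocytes was 573, 827 and 1093, against 116, 183 and 329 in the other cells (log2FC 2.30, SE 0.09, edgeR adjusted p = 2.5e-24). In ependymal cells it was 687, 832 and 1189, against 132, 206 and 322 (log2FC 2.08, SE 0.07, edgeR adjusted p = 7.2e-23). Both types lay above the other cells in 16 of 16 libraries with no overlap. Fibroblasts were higher by less (281, 415 and 647, log2FC 0.67, SE 0.11), and in endothelial cells Gstm1 did not differ detectably (152, 218 and 341, log2FC 0.02, SE 0.07). It was lowest in polydendrocytes, at 8.6, 39.5 and 78.4.

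The mu-class genes form 1 cluster on chromosome 3, in the order Gstm5, Gstm7, Gstm6, Gstm3, Gstm2, Gstm1 and Gstm4 between positions 107895854 and 108045179, and neighbours differed in cell type. Gstm5, at the left end, was higher in astrocytes (287, 477 and 531, against 113, 137 and 176 elsewhere, log2FC 1.87, SE 0.06) and in oligodendrocytes (194, 236 and 339, log2FC 0.91, SE 0.05). Gstm7, the next gene, was an oligodendrocyte gene at 86.5, 154 and 194 against 19.6, 24.9 and 44.9 (log2FC 2.84, SE 0.07, edgeR adjusted p = 7.6e-28), and in astrocytes it was at 0, 11.2 and 20.2. Gstm6 passed the filter in neurons alone, at 10.5, 19.2 and 37.5 against 0.967, 3.18 and 6.63 (log2FC 2.6, SE 0.13). Each of these 3 was higher in its leading type in 16 of 16 libraries. Gstm3 followed Gstm1, with log2FC 2.24 (SE 0.15) in astrocytes and 1.74 (SE 0.18) in ependymal cells. Gstm2 was higher in fibroblasts and endothelial cells: its level was 73.0, 115 and 204 in fibroblasts against 2.38, 7.22 and 9.33 (log2FC 4.27, SE 0.22, edgeR adjusted p = 1.7e-46) and 0, 26.6 and 47.8 in endothelial cells (log2FC 2.64, SE 0.18, higher in 15 of 16 libraries). In mural cells it was not tested (0, 10.2 and 31.5 against 4.70, 8.74 and 13.9).

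**Figure D2:**
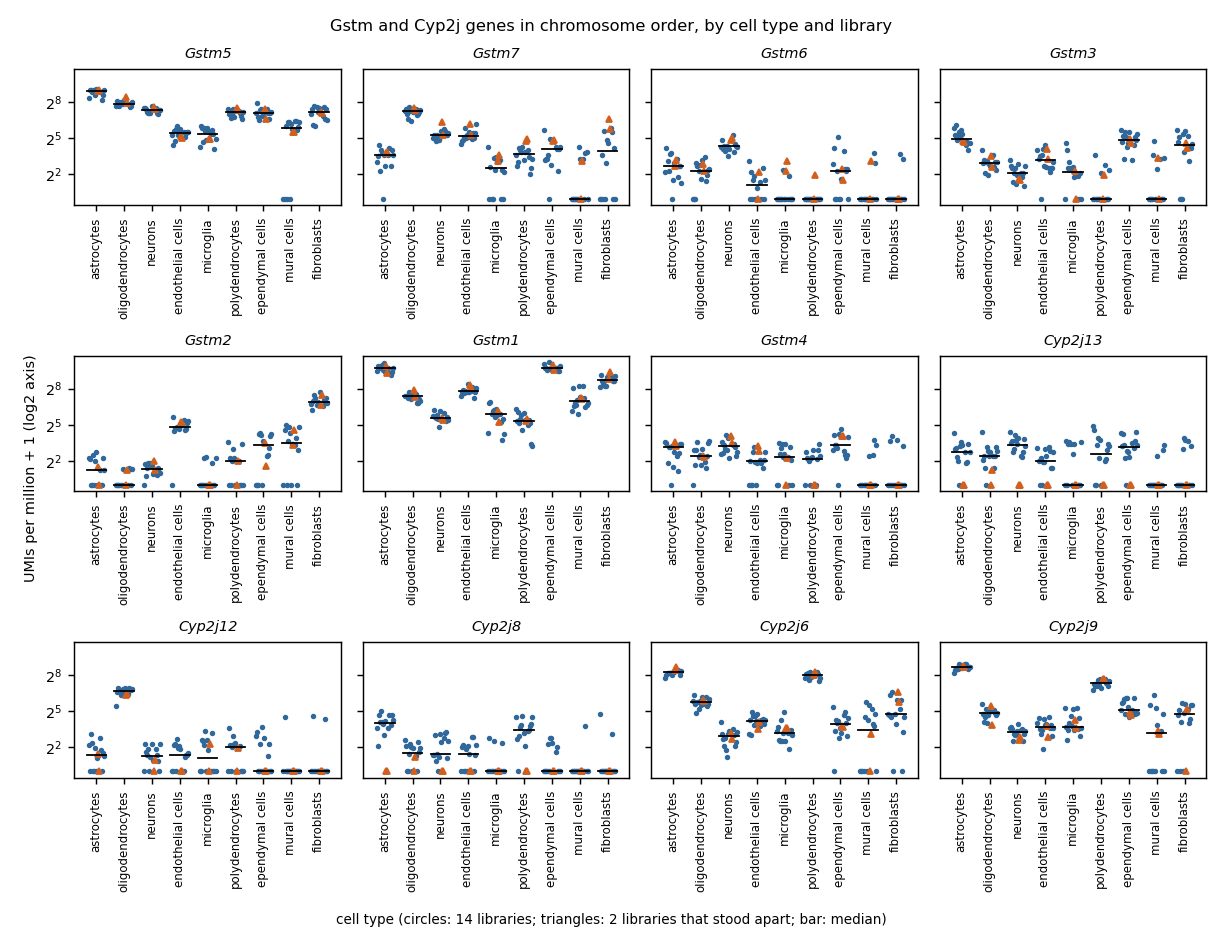
CPM plus 1 (log2 axis) of 12 members in chromosome order (Gstm cluster on chromosome 3, Cyp2j cluster on chromosome 4) by cell type, 1 point per library, with triangles for the 2 libraries that stood apart and a bar at the median. Gstm7 and Cyp2j12 are highest in oligodendrocytes, Gstm6 in neurons, Gstm2 in fibroblasts, Gstm5, Cyp2j6 and Cyp2j9 in astrocytes, and Gstm1 in astrocytes and ependymal cells.

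The pi-class pair on chromosome 19, Gstp1 (4035411 to 4037912) and Gstp2 (4040288 to 4042221), was led by oligodendrocytes. Gstp1 stood there at 449, 1025 and 1388, against 76.3, 138 and 223 in the other cells (log2FC 3.25, SE 0.06, edgeR adjusted p = 7.6e-33), and 50.6% of oligodendrocytes held a Gstp1 UMI against 3.17% of astrocytes and 26.8% of the deeper neurons. Gstp2 stood at 69.0, 193 and 401, against 9.77, 25 and 67.6 (log2FC 3.28, SE 0.07). Both were higher in 16 of 16 libraries, and both were lower in the 8 other types. Reads of the pair cannot be told apart where the copies match.

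Gsta4, an alpha-class enzyme that clears the lipid aldehyde hydroxynonenal, was higher in ependymal cells (202, 263 and 369, against 50.5, 64.0 and 107, log2FC 2.02, SE 0.09), in fibroblasts (76.7, 222 and 404, log2FC 1.38, SE 0.14) and in astrocytes (90.1, 128 and 185, log2FC 0.85, SE 0.07). Ependymal cells lay above the other cells in 16 of 16 libraries. Among theta-class genes, Gstt1 was higher in astrocytes (62.8, 117 and 141, log2FC 2.21, SE 0.09), fibroblasts (36.0, 134 and 256, log2FC 1.89, SE 0.18), ependymal cells (log2FC 1.41, SE 0.10) and polydendrocytes (log2FC 0.64, SE 0.12). Gstt2 of the same class was a vascular gene, at 53.9, 83.5 and 119 in endothelial cells against 8.0, 14.9 and 23.7 (log2FC 2.71, SE 0.09), 0, 70.5 and 192 in mural cells (log2FC 1.81, SE 0.18) and 43.5, 80.1 and 134 in fibroblasts (log2FC 1.77, SE 0.22). In oligodendrocytes Gstt2 was at 0, 1.63 and 5.14.

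Gstz1, which isomerises maleylacetoacetate in tyrosine breakdown, varied little: its highest level over types was 4.62 times its lowest. It was higher in ependymal cells (log2FC 0.84, SE 0.11), neurons (28.6, 53.6 and 66.5, log2FC 0.59, SE 0.07) and astrocytes (log2FC 0.53, SE 0.10). Gstk1 and Gsto1, named after their values were seen, were each higher in several types. The peroxisomal and mitochondrial Gstk1 was at 51.9, 71.3 and 103 in astrocytes (log2FC 1.78, SE 0.10) and at 0.812, 2.44 and 8.16 in neurons (log2FC -3.92, SE 0.15). Gstk1 was also called higher in oligodendrocytes, endothelial cells and ependymal cells. The omega-class Gsto1 was at 25.1, 32.7 and 50.5 in neurons against 8.14, 12.7 and 22.8 (log2FC 1.29, SE 0.10). Gsto1 also passed the limit in polydendrocytes and microglia. In microglia its median (18.4) was below that of the other cells (18.8), and it was higher in 9 of 16 libraries.

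Members grouped under fatty acids and eicosanoids, which include Cyp20a1 though its substrate is not settled, were led by astrocytes. Their sum over 29 genes stood at 853, 1034 and 1249 in astrocytes and at 464, 602 and 710.3 in polydendrocytes, and at 56.5, 125 and 194 in neurons, with no overlap between these 3. Of the 29, 12 were tested, in 72 pairs, with 23 higher, 33 lower and 16 past neither limit, against the same 29.4% and 39% of all genes.

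Cyp2j enzymes turn arachidonic acid into epoxyeicosatrienoic acids, which dilate vessels. Cyp2j9 was at 289, 396 and 494 in astrocytes against 22.6, 28 and 37.3 (log2FC 3.97, SE 0.07, edgeR adjusted p = 4.6e-36), and Cyp2j6 at 219, 299 and 396 against 26.3, 39.3 and 48.3 (log2FC 3.14, SE 0.08). In polydendrocytes Cyp2j9 was at 106, 160 and 207 (log2FC 1.12, SE 0.10) and Cyp2j6 at 181, 251 and 312 (log2FC 2.02, SE 0.09). All 4 were higher in 16 of 16 libraries. Cyp2j12, which lies in the same cluster on chromosome 4, was an oligodendrocyte gene: 41.1, 99.3 and 119 against 0.302, 1.99 and 3.83 (log2FC 6.04, SE 0.14, edgeR adjusted p = 9.8e-30). This was the highest log2FC of any member in any type, and oligodendrocytes held 871 of its 970 UMIs. Cyp2j13, named after its values were seen and tested in neurons alone, was slightly higher there (0, 9.0 and 19.6 against 0, 5.23 and 16.3, log2FC 0.59, SE 0.17).

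Cyp4 enzymes hydroxylate the ends of fatty acids and inactivate leukotrienes. Cyp4f14 was tested in astrocytes alone, which held 211 of its 285 UMIs (11.1, 22.5 and 49.9 against 0, 1.5 and 3.26, log2FC 4.26, SE 0.21). Cyp4f15 was mostly an astrocyte gene (27.4, 61.8 and 95.4 against 0.618, 4.91 and 7.39, log2FC 3.92, SE 0.17). Cyp4f13 was higher in astrocytes (log2FC 1.88, SE 0.09), microglia (31.8, 46.9 and 63.0, log2FC 1.02, SE 0.14) and oligodendrocytes (log2FC 0.66, SE 0.12). Cyp4f16 was higher in astrocytes (log2FC 1.14, SE 0.17) and polydendrocytes (6.70, 19.9 and 43.0, log2FC 1.13, SE 0.20). Cyp4x1, a fatty acid enzyme known from brain, was tested in neurons alone, which held 447 of its 495 UMIs (12.6, 24.5 and 35.2 against 0, 1.28 and 2.11, log2FC 4.25, SE 0.17). Cyp4v3 was higher in fibroblasts (0, 48.4 and 164, log2FC 2.13, SE 0.26), microglia (22.6, 41.9 and 73.4 against 5.69, 13.3 and 20.5, log2FC 2.13, SE 0.18) and astrocytes (log2FC 1.76, SE 0.14). Cyp20a1, whose substrate is not settled, was called higher in 4 types, with log2FC 1.73 (SE 0.09) in oligodendrocytes and 0.37 to 0.50 in astrocytes, endothelial cells and polydendrocytes. The 3 smaller calls were lost after thinning, where the log2FC was 0.11, -0.090 and -0.095. The astrocyte value was 0.05 with a mitochondrial limit of 5%, and the endothelial one 0.12 with library size alone, both past no limit.

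Of the 4 oxysterol and bile acid genes, Cyp46a1, Cyp7b1 and Cyp27a1 each had a different leading type. Cyp46a1, which turns brain cholesterol into the oxysterol that leaves the brain, was neuronal: 42.8, 66.9 and 89.0 against 4.44, 11.5 and 17.9 (log2FC 2.43, SE 0.10, edgeR adjusted p = 2.8e-18). Cyp7b1, which hydroxylates oxysterols and neurosteroids such as dehydroepiandrosterone, was at 105, 152 and 194 in astrocytes against 8.34, 20.8 and 26.7 (log2FC 3.12, SE 0.10), and was also higher in polydendrocytes (16.3, 56.7 and 110, log2FC 0.66, SE 0.12) and fibroblasts (log2FC 0.70, SE 0.22). Neurons and astrocytes thus lay apart for both genes, since Cyp7b1 in neurons was at 6.16, 15.2 and 26.1 and Cyp46a1 in astrocytes at 2.73, 25.1 and 41.9 without a detectable difference from other cells (log2FC -0.10, SE 0.14). Cyp27a1, the mitochondrial sterol hydroxylase, was higher in oligodendrocytes (30.3, 52.5 and 103 against 9.05, 11.9 and 16.5, log2FC 2.55, SE 0.12) and in microglia (9.35, 29.5 and 55.1 against 12.7, 16.6 and 27.3, log2FC 1.44, SE 0.17, higher in 15 of 16 libraries). Fibroblasts (log2FC 0.99, SE 0.29) and astrocytes were called higher for Cyp27a1 too. Cyp39a1, named after its values were seen, had no clear leading type. It was called higher in mural cells (0, 30.3 and 112 against 2.07, 23.4 and 39.3, log2FC 0.89, SE 0.25), with overlapping ranges and in 11 of 16 libraries. In 3 other types it was called higher by less. In oligodendrocytes its median was 21.5 against 22.8 in the other cells, it was higher in 8 of 16 libraries, and with library size alone the log2FC was -0.02.

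Ugt8a joins galactose to ceramide, the first step to the galactolipids of myelin, and stood apart from the other Ugt genes. Its level in oligodendrocytes was 828, 927 and 1103, against 15.7, 27.4 and 32.8 in the other cells (log2FC 5.56, SE 0.07, edgeR adjusted p = 2.5e-37). Oligodendrocytes held 8117 of its 9438 UMIs, and 47.5% of them had a Ugt8a UMI, against 0.604% of astrocytes. The part of free RNA in the astrocyte share was not tested. In polydendrocytes it was at 161, 200.8 and 284 (log2FC 0.37, SE 0.09, higher in 14 of 16 libraries), and this call was lost when cells were thinned to 500 UMIs (-0.18) and in the oil libraries alone (0.22). The 8 other Ugt members passed the filter in no type, and the sum over all 9 in astrocytes was 8.37, 30.7 and 58.1.

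Of the 18 sulfotransferases, 2 were tested. Sult4a1, a brain sulfotransferase with no settled substrate, was neuronal: 97.0, 144 and 194 against 5.28, 9.16 and 11.1 (log2FC 4.05, SE 0.09, edgeR adjusted p = 1.1e-24), and neurons held 2801 of 3155 UMIs. Sult1a1, which sulfates phenols and the hydroxylated products of tamoxifen, was low in neurons at 0, 0.810 and 3.08 (log2FC -5.09, SE 0.22). It was at 73.0, 342 and 744 in fibroblasts against 12.1, 17.3 and 34.1 (log2FC 4.02, SE 0.15, edgeR adjusted p = 8.0e-65), at 20.3, 73.5 and 184 in endothelial cells (log2FC 2.31, SE 0.16) and at 35.3, 57.8 and 102 in microglia (log2FC 1.83, SE 0.15). Each of these 3 types exceeded the other cells in 16 of 16 libraries. Much of the fibroblast signal lay in 1 finer cluster, given below. The 2 transferases were thus at opposite ends: Sult1a1 spanned 298-fold over types, the widest of any member with UMIs in every type and at least 200 in all. Of the other Sult1 genes, the estrogen sulfotransferase Sult1e1 had 116 UMIs, Sult1c1 60, Sult1b1 48 and Sult1c2 43, too few for a test in any type.

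Members of drug and xenobiotic oxidation were the most numerous and mostly sparse: 37 genes, of which 4 were tested (5 of 26 pairs higher and 7 lower, against 29.4% and 39% of all genes, and 14 past neither limit). Cyp2d22, regarded as the mouse counterpart of CYP2D6, which hydroxylates tamoxifen in people, was at 118, 164 and 203 in astrocytes against 10.8, 18.4 and 32.0 (log2FC 3.28, SE 0.09, edgeR adjusted p = 1.7e-30) and at 42.9, 62.0 and 83.7 in endothelial cells (log2FC 1.13, SE 0.11), in 16 of 16 libraries each. In neurons it was at 0, 2.80 and 9.80 (log2FC -3.90, SE 0.16) and in mural cells at 0, 0 and 17.4 (log2FC -3.07, SE 0.40). Cyp2d11, the only other Cyp2d member, had 20 UMIs.

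Cyp3a13, of the subfamily that demethylates tamoxifen in liver, was low everywhere. It was called higher in oligodendrocytes (7.84, 13 and 26.1 against 0.603, 10.4 and 16.5, log2FC 1.06, SE 0.21) and lower in ependymal cells (0, 4.93 and 17.2, log2FC -0.84, SE 0.34), with overlapping ranges, and 5 types passed neither limit. The 7 other Cyp3a members had 20 to 95 UMIs. Cyp1b1, an estrogen-hydroxylating enzyme, was tested in fibroblasts alone, at 48.9, 97.0 and 226 against 0.367, 2.36 and 6.85 (log2FC 5.57, SE 0.25), with no overlap over 16 libraries. The filter favours such a member where it is high, so this call is a description. Cyp2b13, named after its values were seen, was called higher in neurons by little (0, 21.6 and 35.9 against 0, 14.2 and 24.4, log2FC 0.45, SE 0.11) and passed neither limit in the 8 other types.

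Steroid hormone synthesis had 2 members, neither tested in any type. Cyp19a1, the aromatase that makes estradiol from testosterone, had 67 UMIs, 36 of them in neurons, where its level was 0, 1.90 and 11.9. Cyp11a1, which starts steroid synthesis from cholesterol, had 41, of which 22 were in neurons (0, 1.27 and 2.58). At this depth neither could be compared between types or groups. The 4 vitamin A and D genes were also untested. Cyp26b1, which degrades retinoic acid and was picked out after its values were seen, had 227 UMIs, with 81 in neurons and 54 in the far fewer fibroblasts, where its level was 0, 31.4 and 241.

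Finer clusters, which were made from the same cells without the member genes and are given with no test, split several of these patterns. Among ependymal cells, 1 cluster carried 7 of 8 ciliated-cell markers (with 5 of 8 choroid plexus markers) and another 10 of 10 tanycyte markers. Gstm1 and Gsta4 were high in both, with medians of 803 and 249 in the ciliated-like and 905 and 332 in the tanycyte-like cluster. Cyp2s1, named after its values were seen, had 118 UMIs in the ciliated-like cluster (0, 32.0 and 84.9) and 3 in the tanycyte-like one. Cyp1b1 went the other way, with 4 UMIs against 51 (0, 29.3 and 90.1 in the tanycyte-like cluster), as did Gstt1 with medians of 55.3 and 132.

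In the oligodendrocyte lineage, 1 cluster carried 8 of 8 markers of committed precursors. Its Ugt8a level was 283, 658 and 1112, against 87.7, 137 and 184 in the main polydendrocyte cluster and a median of 997 and 751 in the 2 mature clusters. Cyp2j6 had a median of 361 in committed precursors, 236 in polydendrocytes and 50.7 and 64.9 in mature cells. Cyp2j12 had 3 UMIs in committed precursors and 8 in polydendrocytes, while its median was 108 and 99.8 in mature cells. Gstp1 was likewise highest in the mature clusters, with medians of 1042 and 999, against 98.6 and 237 in the 2 clusters of precursors. Of the mural cells, 1 cluster with 8 of 8 pericyte and 3 of 8 smooth muscle markers had a Gstt2 median of 147. Another, with 8 of 8 smooth muscle and 6 of 8 pericyte markers, had 45.8, with both ranges from 0. These 2 held 63 and 61 of the 124 Gstt2 UMIs of mural cells. A further cluster carried both lists (8 and 7 of 8) and also 6 of 8 arterial endothelial markers. It had a Gstt2 median of 89.5 and lay outside the mural cells tested above. The mural counts and calls thus do not cover its cells, which stood among the other cells in that comparison. The type they were counted in is not given here. A microglia-class cluster that carried 8 of 8 perivascular macrophage and 8 of 8 neutrophil markers had a Sult1a1 median of 105, against 44.9 in the other microglial cluster. A finer fibroblast cluster, with enough cells in 10 libraries, had 283 Sult1a1 UMIs (519, 665 and 1156), where all fibroblasts had 362. For Cyp4v3 it had 56 UMIs, where all fibroblasts had 71. Cyp1b1 went the other way, with 19 UMIs where all fibroblasts had 136.

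Some members with few UMIs were concentrated in the small unnamed cluster, led by Bpifa1 and Tshb and carrying 6 of 8 pituitary and pars tuberalis markers, which was present with enough cells in 10 libraries. These members were picked out after their values were seen. The cluster held 113 of the 170 UMIs of Cyp2f2, an airway enzyme (0, 319 and 1034), 41 of the 66 UMIs of Cyp2a5 and 19 of the 116 UMIs of Sult1e1.

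Many low members differed between libraries. WT_oil replicate 3 and Esr1cKO_tamoxifen replicate 3 both had 0 UMIs for 38 of the 124 members, while any pair of the other 14 libraries shared 0 to 3 such members. Of the 38, 22 were drug and xenobiotic oxidation genes, 6 sulfotransferases, 5 fatty acid genes, 3 Ugt genes, 1 a glutathione transferase and 1 a steroid synthesis gene (Cyp11a1). The share at 0 in both exceeded that of all genes of like total in each bin below 1000 UMIs: 58.3% of 36 members with 20 to 49 UMIs against 23.8% of genes, 40.7% of 27 members with 50 to 99 against 13.6%, 28.6% of 14 with 100 to 199 against 6.48%, and 8.33% of 24 with 200 to 999 against 2.09%. None of the 23 members with at least 1000 UMIs was at 0 in both.

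Whole subfamilies were affected. The 15 Cyp2c members had 885 UMIs in the 14 libraries and 2 in the 2 that stood apart, where the level of the others would give 163. The 7 Sult2a members had 858 and 1 (158 at the level of the others), the 8 Cyp3a members 912 and 19 (168), and the 5 Cyp2b members 985 and 9 (181). Cyp2b13 had 27 to 94 UMIs in each of the 14 libraries and 0 in both of the others. The 7 Gstm members had 26279 and 5285 (4840 at the level of the others), the 2 Gstp members 15606 and 2694 (2874), the 8 Cyp2j members 9661 and 1366 (1779) and the 8 Cyp4f members 3762 and 422 (693), which for Cyp4f was below every one of the 14 by level. Cyp2c, Sult2a, Cyp3a and Cyp2b, which are known best from liver, were close to absent from these 2 libraries, whereas Gstm and Gstp were not.

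**Figure D3:**
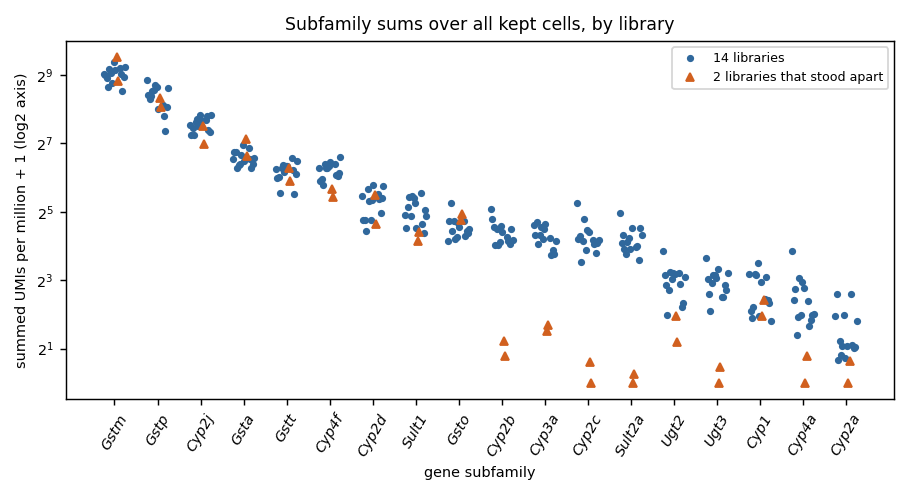
Summed CPM plus 1 over all kept cells (log2 axis) of 18 subfamilies, 1 point per library, with triangles for WT_oil replicate 3 and Esr1cKO_tamoxifen replicate 3. In both, 9 of the 18 (Cyp2a, Cyp2b, Cyp2c, Cyp3a, Cyp4a, Cyp4f, Sult2a, Ugt2 and Ugt3) fall below all 14 other libraries, while the Gstp triangles lie within the range of the 14.

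The difference also moved with the length of the gene on the genome. Over 15078 genes with at least 100 UMIs and a RefSeq position, the median log2 difference (2 libraries minus the 14, with 0.1 CPM added) was 0.22 for genes under 5000 bases and -0.90 for genes over 100000 bases. Among 60 members, 19 (31.7%) lay below -2, where 9.55% of all those genes did. Among the members, Ugt8a, which spans 73411 bases, was at -0.07 and Cyp2b13, which spans 34810, at -7.47. The part of gene length in the difference was not tested. The 2 most extreme members also differed little between cell types, as seen after their values were known: the highest level of Cyp2b13 was 2.18 times its lowest and that of Sult2a5 4.71 times, where the median over 45 other members with at least 200 UMIs was 20.97. The deposited matrices differ too: the lowest number of genes in any barcode was 100 in each of these 2 libraries and 20 in each of the 14 others. What sets these libraries apart, the mice or the way the counts were made, was not tested. They belong to different groups, and the count of group calls is also given without them.

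**Figure D4:**
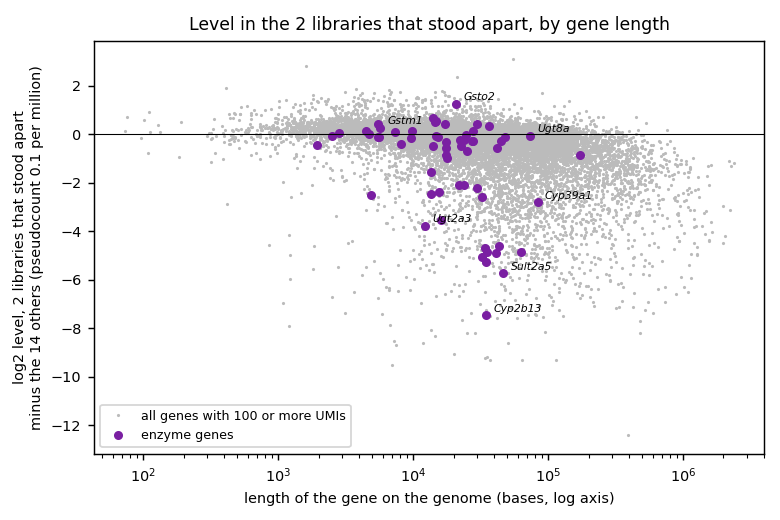
log2 difference in level between the 2 libraries that stood apart and the 14 others (vertical axis) against gene length in bases (log horizontal axis), for 15078 genes with at least 100 UMIs (grey) and 60 members (purple). Of the members, 19 lie below -2, among them Cyp2b13 and Sult2a5, while Gstm1 and Ugt8a lie near 0.

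Between the groups of mice, no member passed the limit. Of 675 member tests (40 members, 9 types and 5 contrasts, 135 tests each), 0 had an edgeR adjusted p under 0.05. Against that, 0 of 64843 tests of all genes passed (0%) in each of the 2 tamoxifen contrasts, 0% in their difference and 0% for Esr1cKO against wild-type mice under oil, and 1 (0.00154%) for Esr1cKO against wild-type mice under tamoxifen. DESeq2 also called 0 of the 675. At an unadjusted p under 0.05, edgeR had 33 of the 675 and DESeq2 30. The median SE of a member's log2FC was 0.32 to 0.49 by contrast, which sets the size of change that could be seen, and a missed limit does not show that a member did not change. Since 1 mouse gave 1 library, the p-values measure the spread between mice. Any spread between handling days is part of it, as this fit had no term for the day. The genotype contrasts share their mice with the tamoxifen contrasts.

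Tamoxifen against oil had 3 of 135 member tests at an unadjusted p under 0.05 in wild-type mice (2.22%, 1 higher and 2 lower), where all genes had 3.22%, and 6 of 135 in Esr1cKO mice (4.44%, 4 higher and 2 lower), where all genes had 3.61%. The difference of the 2 contrasts had 6 (4.44%, all genes 4.87%), and Esr1cKO against wild-type under tamoxifen had 1 (0.741%, all genes 3.21%). Esr1cKO against wild-type under oil had 17 (12.6%, all genes 4.84%), of which 14 were lower. Those 14 are not independent, since 6 were Gstp1 in 6 of 9 types and 2 were its copy Gstp2. Over all 5 contrasts the 33 of 675 are 4.89% of member tests, where all genes had 3.95%. Without the 2 libraries that stood apart, 64 of 695 member tests (9.21%) were under 0.05, where all genes had 5.00%, and still 0 after adjustment.

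The pair with the lowest unadjusted p of each contrast is given here, picked for that value. Cyp2j12 in oligodendrocytes was at 41.1, 78.5 and 79.9 in WT_oil and at 119, 98.4, 119, 118 and 113 in WT_tamoxifen. The 2 groups did not overlap, and the log2FC was 0.68 (SE 0.20, edgeR adjusted p = 0.99986). In Esr1cKO mice it was at 100.2, 115, 84.5 and 113 under oil and at 98.0, 98.04, 83.9 and 105 under tamoxifen, where the groups overlapped (log2FC -0.14, SE 0.18). Gsta4 in polydendrocytes was at 51.4, 45.3, 39.6 and 76.4 in Esr1cKO_oil and at 122, 103, 96.0 and 63.5 in Esr1cKO_tamoxifen (log2FC 0.81, SE 0.28, edgeR adjusted p = 0.956), overlapping through 1 mouse of each group.

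Gstp1 in endothelial cells had the lowest p of both the genotype contrast under oil and the difference of the tamoxifen contrasts. It was at 209, 145 and 137 in WT_oil, 60.8, 118, 117, 94.9 and 125 in WT_tamoxifen, 56.4, 105, 83.1 and 71.9 in Esr1cKO_oil and 116.5, 126, 91.4 and 127 in Esr1cKO_tamoxifen. The WT_oil mice lay above the 2 groups they are compared with. The log2FC of Esr1cKO against wild-type under oil was -0.98 (SE 0.24, edgeR adjusted p = 0.925), and the difference of the tamoxifen contrasts was 1.12 (SE 0.32, edgeR adjusted p = 0.959). Endothelial Gstp1 is at levels below those of the other cells, so the part of free oligodendrocyte RNA in it was not tested. In oligodendrocytes themselves Gstp1 was at 1388, 1238 and 1174 in WT_oil and at 866, 1081, 969 and 449 in Esr1cKO_oil (log2FC -0.54, SE 0.23, edgeR adjusted p = 0.863), and summed over all cells the log2FC was -0.25 (SE 0.26). Gstm6 in neurons was at 15.9, 10.5, 16.4, 13.7 and 18.8 in WT_tamoxifen and at 27.6, 16.6, 30.9 and 20.01 in Esr1cKO_tamoxifen, with overlap (log2FC 0.78, SE 0.28, edgeR adjusted p = 0.99987).

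Members with a known link to tamoxifen or estrogen are given next, with no call among them. Cyp2d22 in astrocytes was at 174, 185 and 177 in WT_oil and at 136, 148, 164, 165 and 189.9 in WT_tamoxifen (log2FC -0.18, SE 0.19), and at 129, 118, 203 and 136 against 130.01, 137, 167 and 175 in the 2 Esr1cKO groups (log2FC 0.07, SE 0.19). Sult1a1 in endothelial cells was at 82.1, 58.1 and 37.4 in WT_oil, 100.1, 118, 20.3, 40.7 and 75.6 in WT_tamoxifen, 184, 85.2, 171 and 45.7 in Esr1cKO_oil and 65.7, 75.1, 71.9 and 55.3 in Esr1cKO_tamoxifen, and all 4 groups overlapped. Its log2FC for Esr1cKO against wild-type under oil was 1.13 (SE 0.53, edgeR adjusted p = 0.953). Cyp19a1 in neurons was at 1.03 to 1.72 in WT_oil, 1.82 to 3.22 in WT_tamoxifen, 0.544 to 3.26 in Esr1cKO_oil and 0 to 11.9 in Esr1cKO_tamoxifen, and was too sparse for a test. The sum of all members over all kept cells, a description, had a mean of 2102 ± 90.3 (SD, n = 3) in WT_oil, 2034 ± 212 (n = 5) in WT_tamoxifen, 1829 ± 243 (n = 4) in Esr1cKO_oil and 1824 ± 195 (n = 4) in Esr1cKO_tamoxifen. In such sums over all cells, fewer cells of a type and less RNA per cell cannot be told apart. The study found a smaller share of astrocytes and a larger share of oligodendrocytes in Esr1cKO mice. The part of that shift in these sums was not tested.

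**Figure D5:**
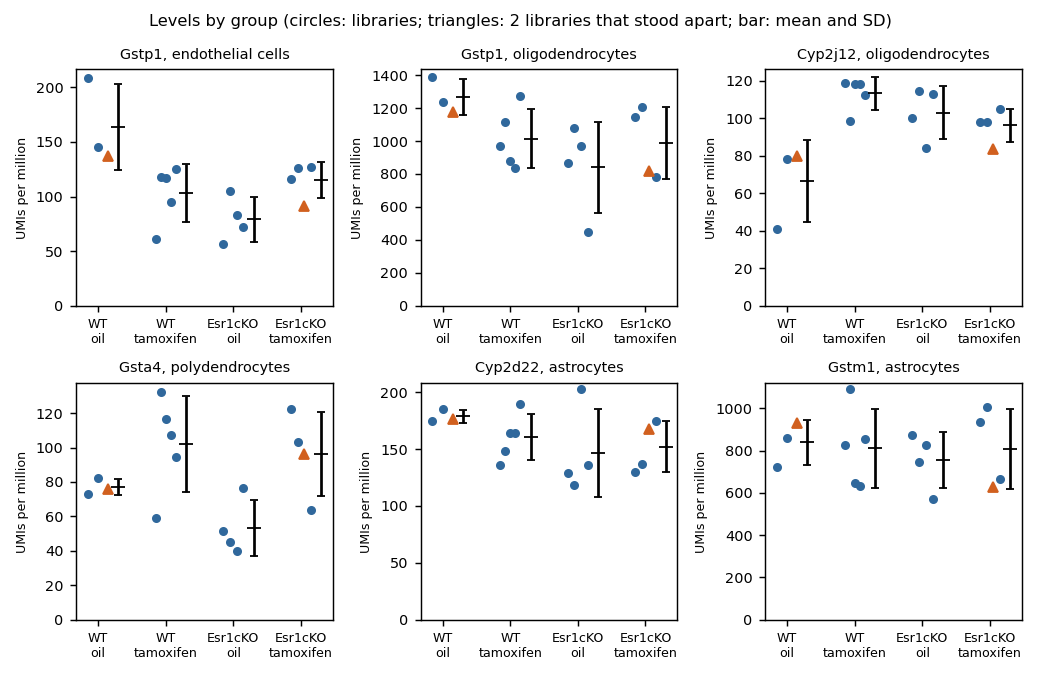
CPM by group for 6 pairs of member and cell type, 1 point per mouse, with triangles for the 2 libraries that stood apart and a bar for the mean ± SD of each group. The WT_oil mice lie below WT_tamoxifen for Cyp2j12 in oligodendrocytes and above Esr1cKO_oil for Gstp1 in endothelial cells, and none of the 6 passed the adjusted limit.

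The enzymes around the members were read from 7 lists of 94 genes, which were drawn up with earlier results of these data known. Genes of a list are counted per type, and the 1 or 2 with the largest log2FC are named. Of the other steroid enzymes, 12 were tested in neurons and all 12 were lower, where 41.3% of all genes were. In astrocytes 8 of 12 were higher (31.9% of all genes) and 4 lower (41.6%), led by Hsd11b1, which regenerates corticosterone (log2FC 4.5, SE 0.14). Endothelial cells were led by the 3-alpha-hydroxysteroid dehydrogenase gene Akr1c14 (log2FC 5.72, SE 0.14) and oligodendrocytes by the steroid reductase gene Srd5a1 (log2FC 3.43, SE 0.13).

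Other phase I and hydrolysis enzymes were lower in neurons for 20 of 22 (41.3% of all genes) and higher in ependymal cells for 13 of 19 (30.1%). Fmo2, a flavin monooxygenase, led endothelial cells (log2FC 5.43, SE 0.14) and the retinaldehyde dehydrogenase gene Aldh1a2 led fibroblasts (log2FC 5.98, SE 0.19). Of the sulfate and glucuronate donors, 7 of 8 were lower in neurons (41.3% of all genes) and 5 of 8 higher in astrocytes (31.9%), led by Papss2, which makes the sulfate donor (log2FC 3.31, SE 0.13). Among the microsomal and other glutathione transferases, the prostaglandin D synthase gene Hpgds was higher in microglia by 7.29 (SE 0.11) on the log2 scale, where 3 of 7 were higher (30.1% of all genes) and 4 lower (43.7%).

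Glutathione synthesis and recycling genes were split in every type. In neurons 2 of 8 were higher (40.4% of all genes) and 5 lower (41.3%), and in endothelial cells 4 of 9 were higher (36.2%) and 4 lower (40.3%). The cystine carrier gene Slc7a11 was higher in astrocytes (log2FC 3.20, SE 0.08). The list of electron transfer around P450 enzymes also holds Hmox1 and Hmox2, heme oxygenase genes whose enzymes take electrons from the same reductase to break down heme. In ependymal cells 5 of 8 were higher (30.1% of all genes) and 2 lower (34.7%). Por, that reductase, was there at log2FC 0.62 (SE 0.09) and Hmox2 at -1.08 (SE 0.26). In microglia 1 of 9 was higher (30.1%), Hmox1 (log2FC 3.45, SE 0.23), and 6 were lower (43.7%). Regulators were higher for 8 of 9 in microglia (30.1% of all genes) and lower for 8 of 11 in neurons (41.3%), where Nfe2l2, which encodes NRF2, had log2FC -3.98 (SE 0.14). Between groups of mice, the 94 genes gave 0 calls in 1805 edgeR tests, with 68 (3.77%) at an unadjusted p under 0.05, where all genes had 3.95%.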

How the data were processed

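Drop-seq libraries of 16 female mice were analysed, with the group of each taken from its labels. The authors deposited, for each library, a matrix of whole UMI counts per gene and cell barcode, not normalized. The submitters' processing notes name STAR 2.6, Seurat 3.6.1 and mm10, and the counting program and annotation are not given in the sources used here.

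Barcodes above 200 but below 4000 detected genes and under 15% mitochondrial UMIs were kept. Cells were integrated over the 4 groups and clustered with Seurat 5.3.0 from 2000 variable genes, from which the member families were left out so that they could not define clusters. Clusters were named from fixed markers. With the families among the variable genes, 99.47% of cells kept their name. Scrublet called 476 cells (0.855%) as doublets, which were removed in an alternative only.

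Counts were summed per library and type (at least 10 cells) and tested with edgeR 4.0.16 (R 4.3.3): TMM scaling, a filter on low counts (filterByExpr), quasi-likelihood tests and Benjamini-Hochberg adjustment over all genes of a type and contrast, with a limit of 0.05. The test of a type set it against the remaining cells of each library in a fit blocked by library. Groups were compared in 1 fit of 4 groups with 5 contrasts. Since each mouse gave 1 library, p-values measure the spread between mice, with any spread between handling days in it. The steps were tested on simulated data. DESeq2 1.42.0, other scalings, filters and cell sets, a replicate block and leaving out each library were alternatives, and the removal of shared barcodes was chosen after seeing the data.

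The members, the lists of partner genes and the tests were chosen with earlier results of these data known. Named genes were the 12 members with the most UMIs; per type up to 4 members with the largest log2FC among those called higher, with at least 50 UMIs in the type and higher in at least 12 of 16 libraries; the steroid synthesis, Cyp2d, Cyp3a, Sult1 and Ugt1a genes whatever their values; any member called between groups; and genes just inside and outside the limit of 20 UMIs. Genes named outside this rule are marked as picked after their values were seen. Low levels of a gene outside its leading types may include free RNA, whose part was not tested.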

Additional observations from a re-analysis of the deposited data

Results flagged for a closer look

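Of 63 sets of 4 or 5 mice examined for a member and type, 2 held a sample far from the others by Dixon's criterion, and chance alone flags about 1 in 20. Gstm6 in neurons was at 37.5 CPM (UMIs per 1000000 UMIs of the same cells) in Esr1cKO_oil replicate 3, where the other 3 mice of the group were at 19.6 to 21.9. Ugt8a in oligodendrocytes was at 1103 in Esr1cKO_tamoxifen replicate 3, where the other 3 were at 924 to 945. The latter library is 1 of the 2 that stood apart from the other 14.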

How the results depend on the processing

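As reported, 82 pairs of member and type were higher, 137 lower and 0 called between groups. Thinning cells to 500 UMIs, without the 18387 shallower cells, gave 46 higher and 84 lower, and a mitochondrial limit of 5% gave 60 higher and 84 lower. No filter on low counts gave 122 higher, 253 lower and 1 group call. That call was Gsta4 in endothelial cells for tamoxifen in Esr1cKO mice (log2FC -1.28, SE 0.25, edgeR adjusted p = 0.000837), which was too low for the group test as reported. These alternatives change how many genes are tested. Leaving out 1 library at a time gave 80 to 85 higher, 134 to 139 lower and 0 to 0 group calls. Without the 2 libraries that stood apart there were 85 higher and 135 lower, and without shared barcodes 84 and 136. DESeq2 gave 77 and 139. With the replicate block (fours of library numbers), 0 of 675 member tests passed and 38 had an unadjusted p under 0.05. Same-four libraries deviated together at a median r of 0.22 over 23 pairs (-0.21 to 0.92) and other pairs at -0.12 over 72. The libraries that shared 303 to 359 barcodes in every pair make up the last of these fours. Not every pair was above 0.1, and the labels do not say whether the fours are the mice that the study handled on 1 day. Pairing thus cannot be told from these data. Of 1532 alternatives to 54 named values, 1521 kept direction and side of the limit, 8 kept direction only, and 3 reversed, all after thinning: Ugt8a in polydendrocytes (-0.175), Cyp20a1 in endothelial cells (-0.090) and Cyp20a1 in polydendrocytes (-0.095). The cause was not tested. Sparse members are limited by depth, with 86 of 124 too low for any test by type.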
